A study of Solanum lycopersicum with 12 samples.

Results

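Leaves of unstressed tomato plants sprayed with Alethea were compared with leaves of plants sprayed with water, on 6 of the 12 arrays of the study. Plants of cultivar Ailsa Craig were 4 weeks old when they were sprayed until run-off with distilled water (WW) or with 99 parts of water to 1 part of Alethea (AW). Plants of both groups were watered without salt 24 h later, and the third true leaf was frozen 48 h after the spray. Each array carried 1 RNA extract of leaf pooled from 3 plants, and each group was sampled on 3 separate occasions, so that 3 AW arrays were paired with 3 WW arrays. The other 6 arrays came from plants given the same sprays and then 100 mM NaCl (AS and WS). None of the 4 groups received a single constituent of Alethea, so the formulation can be described only as a whole. Values are log2 signals of probe sets, and a probe set was kept where its mean exceeded 3.2 in AW or in WW, which held for 7721 of 10209.

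Alethea combines a dihydrojasmonate salt, a benzoate salt and L-arginine with mineral nutrients. Jasmonates are the hormones through which a wounded or chewed tomato leaf switches on protease inhibitors and enzymes that spoil the leaf protein for insects, among them arginase and leucine aminopeptidase. Benzoate is a precursor of salicylate, the hormone behind many pathogenesis-related proteins, and arginine is the substrate from which plants make urea, polyamines and, through ornithine, proline. Ethylene works alongside both hormones through transcription factors of the AP2/ERF family. The comparison therefore asks what the spray alone left behind in an unstressed leaf after 48 h.

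Genes that mark tissues were read first, as a check of the leaf label. The 9 probe sets for light-harvesting and photosystem proteins had WW means of 14.8 to 15.3. Of 18 probe sets for fruit, flower, pollen and meristem markers, 15 were under 3.2 on all 6 arrays, among them those of the fruit genes E8 and 2A11, the pistil and stamen gene AG1 and the meristem gene WUS. The other 3 were kept, with WW means of 5.58 to 9.79, so not every such marker was absent from these leaves. Array medians were alike, at 7.66 to 7.76. The occasions were not alike. The spread of the AW minus WW differences over the probe sets kept was an SD of 0.32 on occasion 1, 0.68 on occasion 2 and 0.49 on occasion 3, and 58, 381 and 201 probe sets were more than 1 log2 unit higher with Alethea on those occasions. Array WW2 stood apart in its hybridisation controls, which averaged 12.5 over 18 probe sets against 10.8 to 11.3 on the other 5 arrays.

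An extracellular ribonuclease, a xyloglucan endotransglycosylase, a miraculin-like protein, a glutathione S-transferase and an arginase were higher on the AW arrays, and a chlorophyll b reductase, a plastid ATP/ADP transporter, a prolyl 4-hydroxylase and a pectin methylesterase were lower. None of the 7721 differences passed limma with the occasion as a block at a Benjamini-Hochberg adjusted p under 0.05 (0 percent called), and the smallest adjusted p was 0.165. At an unadjusted p under 0.05 there were 321 probe sets higher (4.16 percent) and 303 lower (3.92 percent), or 624 in all (8.08 percent). Rank Product, the method used in the study, ranks the differences within each pair. As computed here, it called 28 probe sets higher (0.363 percent) and 7 lower (0.0907 percent). The study's own run, in other software and after its own filter, listed many more probe sets as regulated by Alethea. Why the counts differ was not tested. All 3 pairs had the same sign in 1275 probe sets higher with Alethea (16.5 percent) and 1224 lower (15.9 percent). The 2 groups did not overlap in 240 probe sets higher (3.11 percent) and 188 lower (2.43 percent).

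**Figure D1:**
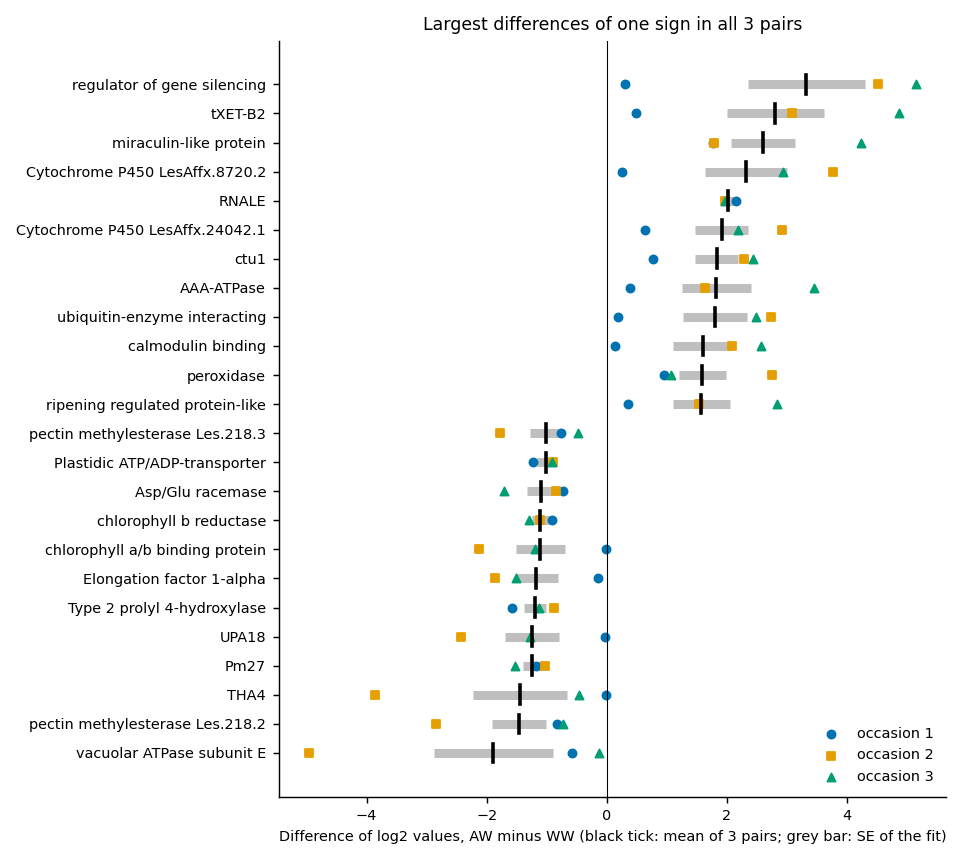
Differences of log2 values between the AW and WW array of each occasion for the 12 named genes with the largest mean difference in each direction among those of one sign in all 3 pairs, with the mean (black tick) and its standard error from limma (grey bar). RNALE has 3 nearly equal differences, while most of the other genes higher with Alethea lie near 0 on occasion 1, and vacuolar ATPase subunit E and THA4 are far below 0 on occasion 2 alone.

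RNALE, the secreted S-like ribonuclease LE that tomato cells are known to make under phosphate starvation, had the smallest p of all probe sets. Its log2 values were 6.51, 8.53 and 8.04 in WW and 8.65, 10.49 and 10.01 in AW on occasions 1, 2 and 3. Every AW array exceeded every WW array, although occasion 1 was the lowest in both groups. The mean difference was 2.02 ± 0.13 (SE, n = 3 pairs), 4.07-fold, with a limma adjusted p of 0.165. In a leaf extract more cells of a type and more RNA per cell cannot be told apart. RNALE was called by Rank Product at a false discovery rate of 0.00175. It was also higher with Alethea in the 3 salt-watered pairs, by 1.37, 1.54 and 2.44. Its relative rnalx, also an S-like ribonuclease, had a mean difference of 0.35 ± 0.17.

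Most of the other leading genes higher with Alethea differed little on occasion 1. The gene named as a regulator of gene silencing, a calmodulin-like protein in tobacco, had values of 1.73, 2.18 and 2.21 in WW and 2.03, 6.68 and 7.36 in AW. All WW values and the AW value of occasion 1 were under the filter of 3.2, and only the AW arrays of occasions 2 and 3 stood well above it. The mean difference was 3.32 ± 0.97, and it was 4.82 without occasion 1. The xyloglucan endotransglycosylase tXET-B2, which cuts and rejoins the xyloglucan chains of the cell wall, was at 3.27, 3.48 and 3.23 in WW and 3.75, 6.56 and 8.08 in AW. Its groups did not overlap, with a mean difference of 2.81 ± 0.81, but the difference was 0.49 on occasion 1 against 3.08 and 4.85 on the others. The miraculin-like protein, of the Kunitz family of protease inhibitors, was higher by 1.77, 1.79 and 4.23 (mean 2.59 ± 0.53), and its lowest AW value, 6.08, was just under its highest WW value, 6.24. All 3 genes were called by Rank Product, at false discovery rates of 0.00175, 0.00433 and 0.0015, and none by limma, with an adjusted p of 0.605 each.

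Among the 12 genes were a glutathione S-transferase, 2 cytochromes P450 and a peroxidase. The glutathione S-transferase ctu1, which joins glutathione to reactive compounds, was at 6.52, 6.69 and 7.03 in WW and 7.29, 8.97 and 9.46 in AW, with no overlap between groups and a mean difference of 1.83 ± 0.36. GST-T4, a second glutathione S-transferase, was higher by 0.77, 1.42 and 1.15. A pair of probe sets for cytochromes P450, the haem enzymes that hydroxylate hormones and foreign compounds, had mean differences of 2.31 ± 0.68 and 1.91 ± 0.44. On occasion 1 they differed by 0.25 and 0.64, where both were under the filter in both groups, and the second was under it on all 3 WW arrays, so that these differences are set against background. A peroxidase was higher by 0.95, 2.75 and 1.07, but its WW mean of 3.11 was under the filter, so it was kept through AW. Rank Product called ctu1, the first 2 cytochrome P450 probe sets and the peroxidase, but neither GST-T4 nor the third cytochrome P450 probe set. The list of antioxidant and redox genes, which holds ctu1 and GST-T4, had 9 of 21 probe sets above 0 and a median of -0.06. The other 4 of the 12 were named as an AAA-ATPase, a protein interacting with a ubiquitin-conjugating enzyme, a calmodulin-binding protein and a ripening-regulated protein. The ripening-regulated protein was also matched to a Hin1-like protein. In that order the mean differences of the 4 were 1.82 ± 0.58, 1.80 ± 0.53, 1.59 ± 0.49 and 1.57 ± 0.47. The AAA-ATPase and the calmodulin-binding protein were under the filter on all 3 WW arrays and were kept through AW. On occasion 1 the 4 differences lay between 0.14 and 0.39. Across the 12 genes, 10 differed by under 1 log2 unit on occasion 1 and by over 1 on both of the others.

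**Figure D2:**
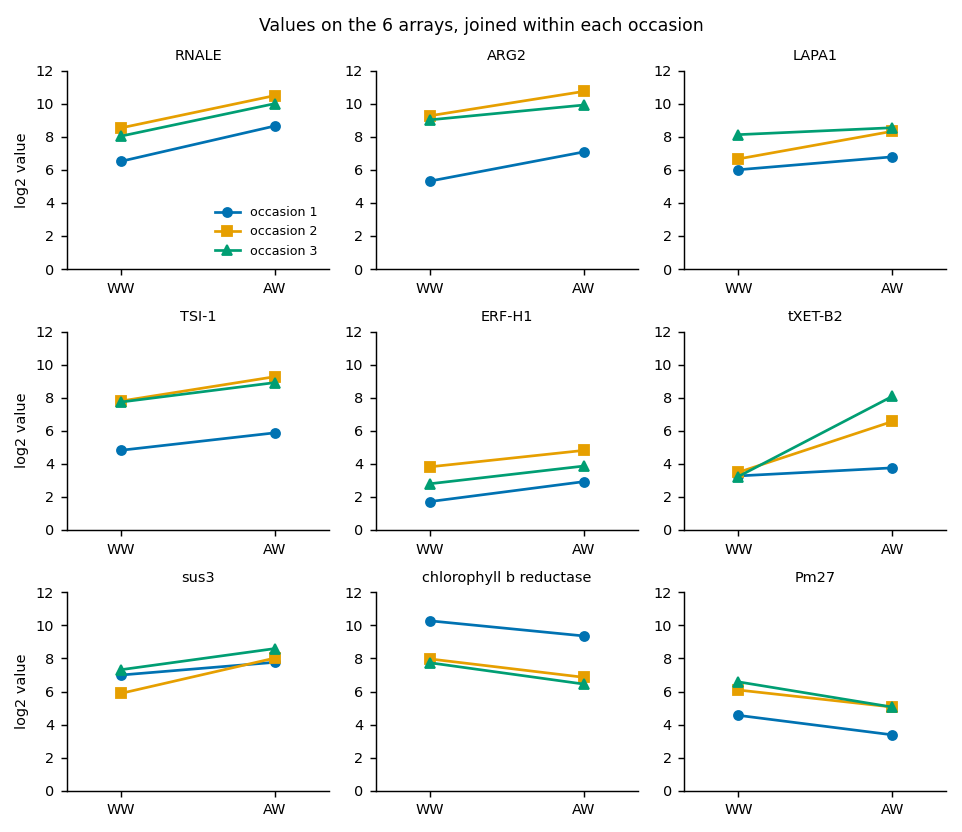
log2 values of 9 genes on the 3 WW and 3 AW arrays, with a line joining the 2 arrays of each occasion. The lines of RNALE, ARG2, TSI-1, ERF-H1, chlorophyll b reductase and Pm27 are close to parallel at different heights, whereas that of tXET-B2 is nearly flat on occasion 1.

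The genes lower with Alethea comprised some with even differences, some in which occasion 2 dominated and some with little difference on occasion 1. Of the 12 leading ones, 4 differed by under 1 log2 unit on occasion 1 and by over 1 on both of the others, among them the chlorophyll b reductase. Among the even ones, the putative chlorophyll b reductase, which begins the breakdown of chlorophyll b, was at 10.28, 7.97 and 7.74 in WW and 9.36, 6.86 and 6.45 in AW. The groups overlapped because occasion 1 was high in both, but each pair was lower, by 0.92, 1.11 and 1.29, with a mean of -1.11 ± 0.14. The plastidic ATP/ADP transporter, which brings cytosolic ATP into plastids, was at 10.68, 8.80 and 8.83 in WW and 9.45, 7.90 and 7.91 in AW, again lower in each pair (mean -1.02 ± 0.14). The type 2 prolyl 4-hydroxylase, of the enzymes that form the hydroxyproline of cell wall glycoproteins, was at 6.30, 6.50 and 6.06 in WW and 4.72, 5.62 and 4.94 in AW. Its groups did not overlap, and its mean difference was -1.20 ± 0.18. Pm27, named from a Prunus sequence, was lower by 1.18, 1.03 and 1.53, a mean of -1.25 ± 0.16. Rank Product called Pm27 and the prolyl 4-hydroxylase, both at 0.033, and limma called none of them, with adjusted p from 0.57 to 0.605.

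A putative aspartate/glutamate racemase was lower by 0.73, 0.84 and 1.71. A probe set for elongation factor 1-alpha, which brings aminoacyl-tRNA to the ribosome, had a mean difference of -1.17 ± 0.35 with no overlap between groups. This difference was uneven, at -1.69 without occasion 1, -0.83 without occasion 2 and -1.0 without occasion 3, so occasion 1 contributed least. A pair of probe sets of 1 pectin methylesterase cluster, enzymes that demethylate wall pectin, had mean differences of -1.47 ± 0.45 and -1.0 ± 0.28, or -0.78 and -0.62 without occasion 2. The pectin methylesterase probe sets were lower in all 3 salt-watered pairs as well, with means of -1.72 and -0.98.

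In a pair of genes the mean difference came mainly from array WW2, and the water-sprayed array of the same occasion under salt, WS2, was high as well. Subunit E of the vacuolar ATPase, the proton pump of the vacuole, was at 2.58, 6.95 and 1.99 in WW and 2.00, 2.00 and 1.87 in AW. THA4, in maize a part of the twin-arginine translocase of thylakoids, was at 3.27, 6.59 and 2.68 in WW and 3.25, 2.73 and 2.20 in AW. Only WW2 was well above the filter in either gene on these arrays. WS2 was at 5.93 for the ATPase subunit and 4.62 for THA4, against 1.81 and 2.56 on AS2. Without salt, and without occasion 2, the mean differences of -1.89 and -1.45 became -0.35 and -0.24. UPA18 and a chlorophyll a/b binding protein probe set also had their highest value on WW2, with differences of -0.03, -2.42 and -1.28 for the former and of -0.01, -2.13 and -1.19 for the latter. On WS2 they were at 6.12 and 8.20, and their salt-watered differences on occasion 2 were -2.07 and -1.73. The 4 genes were thus high on WW2 and on WS2. WW2 was also the array with the high hybridisation controls, which were not examined on WS2, and a link between the controls and these genes was not tested.

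Arginine, a constituent of Alethea, is the substrate of several enzymes on the array. Probe sets kept for arginine, polyamine, proline and urea genes numbered 16. In all 3 pairs 7 of them were higher and 1 was lower, against 16.5 and 15.9 percent of all 7721. At an unadjusted limma p under 0.05, 4 were higher and none lower, against 4.16 and 3.92 percent of all. The median difference was 0.22 against -0.003 over all. ARG2, the arginase that jasmonate and wounding are known to induce in tomato, is measured by 2 of the 16 and so counts double. On the first its values were 5.32, 9.27 and 9.02 in WW and 7.08, 10.74 and 9.92 in AW, and the second had differences of 1.39, 1.51 and 0.49. Each AW array exceeded its own WW array, while the arrays of occasion 1 were the lowest of both groups by over 2 log2 units. The mean differences were 1.38 ± 0.20 (2.60-fold) and 1.13 ± 0.24, with a limma adjusted p of 0.605 for both, and the first was called by Rank Product at 0.0229. ARG1, the other arginase, was higher by 0.84, 0.81 and 0.06, and the proline transporter ProT2 by 0.55, 0.19 and 0.47. Arginine decarboxylase (ADC) and ornithine decarboxylase (ODC), which open the routes to polyamines, had differences of 0.02, -0.09 and 0.29 and of 0.01, -0.45 and -0.60. Proline dehydrogenase (PDH), which degrades proline, was 0.48 higher on occasion 1 and 0.29 and 1.12 lower on occasions 2 and 3, so its mean of -0.31 ± 0.32 had no stable sign.

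Genes that respond to wounding and jasmonate had a median difference of 0.37, and those that make jasmonate one of -0.02. For the response 11 probe sets were kept of 16, of which 10 had a mean difference above 0 (49.5 percent of all probe sets did). Of the 11, 4 were higher in all 3 pairs and 3 at an unadjusted p under 0.05 (16.5 and 4.16 percent of all). Their median under salt was 0.07. The number above 0 was 6 of the 11 on occasion 1, 10 on occasion 2 and 8 on occasion 3. The 2 ARG2 probe sets are members of this list too, and this 1 gene counts double among both the 4 and the 3. Leucine aminopeptidase LAPA1, a wound-induced enzyme, was at 6.01, 6.66 and 8.13 in WW and 6.79, 8.33 and 8.55 in AW. It was higher in each pair, with overlapping groups, by a mean of 0.96 ± 0.27. LEJA1 was higher by 0.58, 0.11 and 0.29, with no overlap between groups. Threonine deaminase TD2 and the cathepsin D inhibitor, both wound-induced, were lower on occasion 1, by 0.63 and 0.62, and higher on occasion 2, by 1.22 and 0.59, and on occasion 3, by 0.51 and 1.64.

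For jasmonate synthesis 7 probe sets were kept of 12. In all 3 pairs 2 of them were higher and 2 lower (16.5 and 15.9 percent of all were). The 13-lipoxygenase loxD, which starts the pathway, was higher by 0.36, 0.45 and 0.20, while the 12-oxophytodienoate reductase OPR3, which acts late in it, had differences of 0.09, 0.42 and -0.08. Hydroperoxide lyase (HPL), the entry to the branch that makes leaf aldehydes, was within 0.18 of WW in every pair. Allene oxide cyclase (AOC), which acts after the lipoxygenase, had differences of -0.04, -0.02 and -0.17, and the allene oxide synthase AOS lay under the filter. The difference between the lists was not tested.

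**Figure D3:**
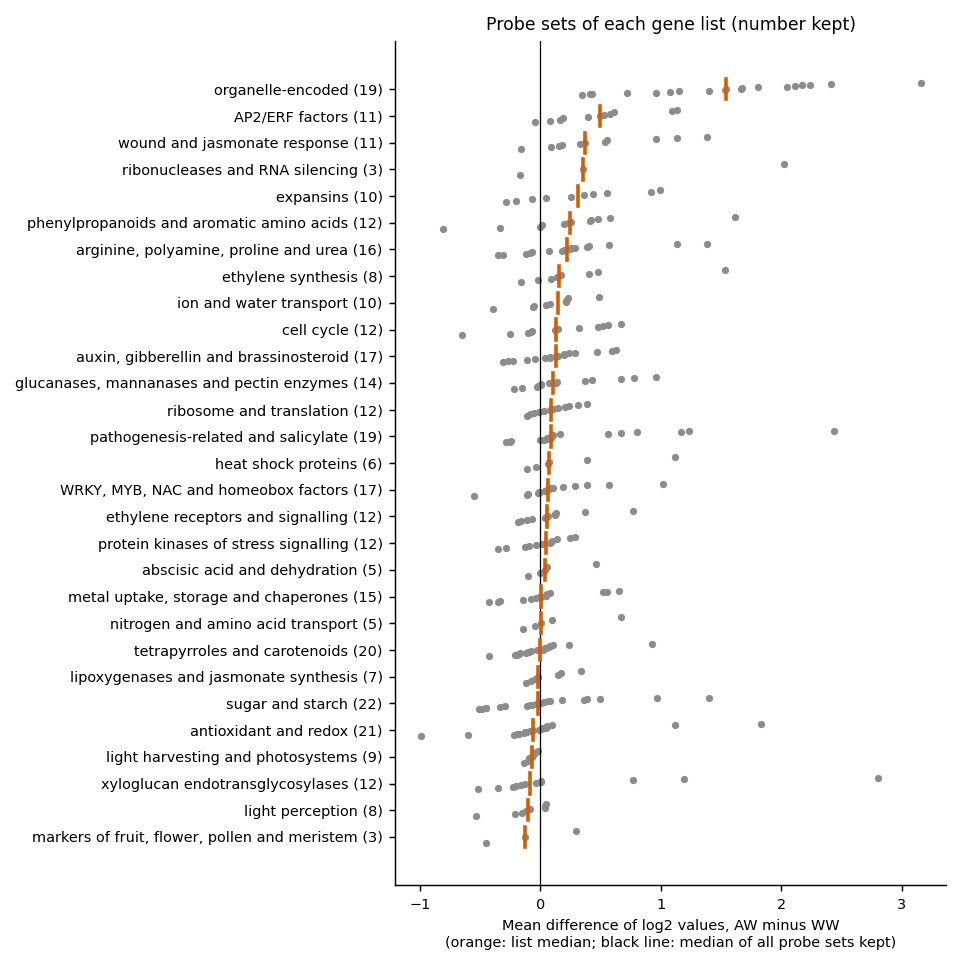
Mean AW minus WW difference of each probe set kept, by gene list, with the list median (orange) and the median of all 7721 probe sets (black line). The organelle-encoded probe sets and the AP2/ERF factors have the highest medians, 1.54 and 0.49, and the light-harvesting and photosystem probe sets form a tight cluster at -0.14 to -0.02.

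Factors of the AP2/ERF family, the transcription factors that carry ethylene and jasmonate signals to defence genes, had a median difference of 0.49, and no member was called by limma or Rank Product. Of 11 probe sets kept, 10 had a mean difference above 0 (90.9 percent, against 49.5 percent of all). In all 3 pairs 5 were higher and none lower (16.5 and 15.9 percent of all). At an unadjusted p under 0.05, 4 were higher (4.16 percent of all). The median was 0.29 on occasion 1, 0.12 on occasion 2 and 0.83 on occasion 3. ERF-H1 was at 1.71, 3.81 and 2.79 in WW and 2.92, 4.81 and 3.86 in AW. The groups overlapped, and each pair differed by nearly the same amount, a mean of 1.09 ± 0.13, although several of these values lie near or under the filter. Because its WW mean of 2.77 was under 3.2, ERF-H1 was kept through AW, and its mean difference could only be above 0. PTI4 and PTI6, first known as partners of the resistance kinase Pto, were higher by 0.54, 0.44 and 0.49 and by 0.57, 0.30 and 0.96. ERF3 was higher by 0.64, 0.11 and 0.83. The limma adjusted p was 0.57 for ERF-H1 and 0.605 for the other 3.

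For ethylene synthesis 8 probe sets were kept of 15, with a median of 0.15. Of the 8, 4 were higher in all 3 pairs (16.5 percent of all probe sets were). ACS1A, a synthase of the ethylene precursor ACC, was at 3.40, 5.06 and 3.65 in WW and 4.99, 5.47 and 6.25 in AW. Its highest WW value lay above its lowest AW value, and its mean difference of 1.53 ± 0.42 (2.89-fold) was called by Rank Product at 0.0372 but had a limma adjusted p of 0.605. Under salt its differences were 0.83, 2.43 and -1.35. ACO6, an ACC oxidase, and ACS6, another ACC synthase, were higher by 0.28, 0.64 and 0.52 and by 0.45, 0.07 and 0.68. Ethylene receptors and signalling had a median of 0.05 over 12 probe sets. The receptor gene ETR4 had the largest difference of these, 0.77 ± 0.27, from values of which only AW1 and AW3 were above the filter.

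Of 19 probe sets kept for pathogenesis-related genes, 15 had a mean difference above 0 (78.9 percent, against 49.5 percent of all). The median was 0.09. In all 3 pairs 2 were higher and 1 was lower, so 15.8 percent kept one sign against 32.4 percent of all. On occasions 1, 2 and 3 the number above 0 was 11, 12 and 11 of the 19. A few differences were large. TSI-1, a stress protein of the PR-10 family, was at 4.82, 7.79 and 7.73 in WW and 5.87, 9.27 and 8.91 in AW, higher in each pair, with overlapping groups and a mean of 1.24 ± 0.15. The osmotin-like protein NP24-I was higher by 1.88, 0.06 and 1.56. A PR5 probe set was at 2.07, 5.31 and 2.24 in WW and 2.03, 7.0 and 7.92 in AW, so that it was under the filter in both groups on occasion 1 and differed by 5.68 on occasion 3. Rank Product called TSI-1 and PR5, both at 0.0453. Tyramine hydroxycinnamoyl transferase THT1-3, which makes wall-bound amides after wounding, was 0.07 lower on occasion 1 and 2.17 and 2.74 higher on the others. Without occasion 1 the mean differences of THT1-3 and PR5 were 2.45 and 3.68 in place of 1.61 and 2.44, and without occasion 3 that of PR5 was 0.82.

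Cell wall loosening genes differed unevenly within their families. Of 10 expansin probe sets kept, whose proteins loosen the wall without cutting it, 5 were higher in all 3 pairs and 1 was lower. Over all probe sets these shares were 16.5 and 15.9 percent. At an unadjusted p under 0.05, 4 expansin probe sets were higher (4.16 percent of all), and the list median was 0.31. EXP12 was at 9.56, 8.70 and 9.37 in WW and 9.91, 10.06 and 10.42 in AW, and exp9 at 7.69, 6.70 and 6.98 in WW and 8.45, 8.17 and 7.72 in AW. Neither gene overlapped between groups, and their mean differences were 0.92 ± 0.23 and 0.99 ± 0.20. EXP1 and EXP2, the latter at 11.77 to 13.33, were higher by means of 0.55 ± 0.16 and 0.43 ± 0.16, and EXPA4 was lower by 0.28, 0.31 and 0.26. Of the 12 xyloglucan endotransglycosylase probe sets, 3 were higher in all 3 pairs, tXET-B2, XTH3 (1.19 ± 0.24) and LeXTH9 (0.77 ± 0.27). Over all probe sets 16.5 percent were, and the median of the 12 was -0.09. XET2 had differences of 0.01, -0.50 and -0.56. The beta-galactosidase TBG3 and the endoglucanase Cel2, which act on galactan side chains and on glucans of the wall, were higher by 0.82, 0.92 and 1.15 and by 0.68, 0.89 and 0.76. They belong to a list of 14 glucanases, mannanases and pectin enzymes, with a median of 0.10. In that list 5 were higher in all 3 pairs and none lower (16.5 and 15.9 percent of all).

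Sugar genes had a median of -0.02 over 22 probe sets, with 2 large exceptions. Sucrose synthase sus3, which splits sucrose for use in sinks and stressed tissue, was at 7.0, 5.89 and 7.32 in WW and 7.77, 8.03 and 8.60 in AW. Its groups did not overlap, its mean difference was 1.40 ± 0.28 (2.63-fold), and Rank Product called it at 0.0453. The acid invertase Wiv-1 was 0.08 lower on occasion 1 and 1.47 and 1.51 higher on the others. The ammonium transporter AMT1-2 was higher by 0.21, 0.93 and 0.86.

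All 9 listed light-harvesting and photosystem probe sets had mean differences between -0.14 and -0.02, and none passed an unadjusted p of 0.05. Lower in all 3 pairs were 2 of the 9 (15.9 percent of all probe sets were). They were CAB6A of the light-harvesting antenna (-0.10 ± 0.13) and psaD of photosystem I (-0.14 ± 0.13). These signals, at about 15, are near the highest WW mean of any probe set, 15.6, so the arrays may not show a change in them. The chlorophyll a/b binding protein probe set with a mean difference of -1.11, described above, is not in the list and had WW values of 6.17, 8.41 and 6.97. Chlorophyll and carotenoid genes had a median of -0.005 over 20 probe sets. Of the 8 light perception probe sets, the blue-light receptor probe set CRY1A was lower by 0.42, 0.67 and 0.50.

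Genes for the uptake, storage and use of metals, of interest because the formulation supplies metal nutrients, had a median of 0.003 over 15 probe sets and none at an unadjusted p under 0.05. The copper/zinc superoxide dismutases SODCC.1 and SODCP.2 and their copper chaperone CCS were higher in all 3 pairs, by means of 0.52 ± 0.21, 0.65 ± 0.30 and 0.55 ± 0.23, and iron superoxide dismutase (FESOD) was lower in all 3, by 0.05, 0.61 and 0.62. On occasion 1 none of the 4 differed by more than 0.19. Metallothionein LEMT1, at 15.3 to 15.5, had differences of 0.07, 0.02 and 0.06.

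Ribosomal protein genes showed small differences with low spread. Of 12 probe sets kept, 6 were higher in all 3 pairs and none lower (16.5 and 15.9 percent of all). Groups did not overlap in 4 of the 12, all higher (3.11 percent of all). The list median was 0.09. On occasion 3 it was 0.03, and 7 of the 12 were above 0. The largest mean difference was that of RPS25, 0.38 ± 0.18. The gene rpl38 was at 12.26, 12.33 and 12.21 in WW and 12.65, 12.55 and 12.55 in AW. Of the other lists, abscisic acid and dehydration genes had a median of 0.03, heat shock proteins 0.07 and cell cycle genes 0.13. It was 0.24 for phenylpropanoid genes, 0.15 for ion and water transport, 0.06 for WRKY, MYB, NAC and homeobox factors, 0.04 for stress kinases, 0.001 for nitrogen transport and -0.11 for light perception. The median was 0.13 for auxin, gibberellin and brassinosteroid genes, of which the brassinosteroid oxidase CYP85A1 and the auxin-induced RSI-1 were higher in all 3 pairs, by means of 0.63 ± 0.20 and 0.59 ± 0.18. The small heat shock protein HSP17.4 was higher by 0.18, 1.92 and 1.25.

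The largest shift of any list was that of plastid- and mitochondrion-encoded transcripts, and it was present on 2 occasions of 3. These 19 probe sets, which cover ribosomal proteins, cytochrome f and subunits of the photosystems, NADH dehydrogenase and ATP synthase, were chosen by names in additional files of the study that were themselves selected on these arrays, so their direction is not independent evidence. Their median difference was -0.48 on occasion 1, 2.72 on occasion 2 and 2.64 on occasion 3, and 1, 18 and 19 of the 19 were above 0. Plastid ribosomal protein S7 was at 10.63, 8.60 and 9.39 in WW and 10.28, 12.61 and 12.98 in AW. Cytochrome f was at 10.93, 8.11 and 9.14 in WW and 10.30, 11.58 and 12.44 in AW. In both genes the WW values of occasions 2 and 3 were the lowest and the AW values of those occasions the highest, with both arrays of occasion 1 between them. The chloroplast envelope membrane protein had the largest mean of the list, 3.16 ± 1.44, from differences of -1.34, 5.04 and 5.79. Rank Product called 5 of the 19 higher (0.363 percent of all probe sets were) and limma none. The names came from the study's own Rank Product lists of these arrays, so these calls are not independent evidence either.

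**Figure D4:**
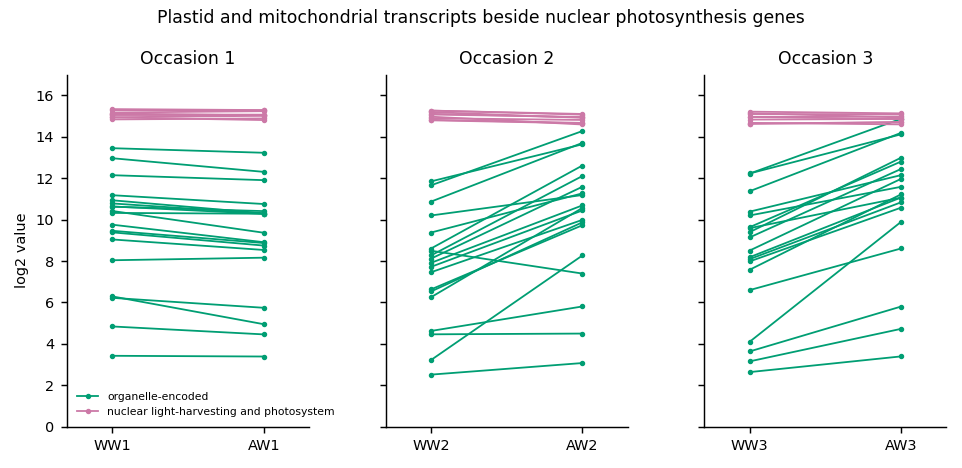
log2 values of the 19 organelle-encoded probe sets (green) and the 9 nuclear light-harvesting and photosystem probe sets (pink) on the WW and AW array of each occasion. The green lines slope slightly down on occasion 1 and nearly all climb on occasions 2 and 3, while the pink lines stay near 15.

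Labelling for this array starts from poly(A) tails, which most organelle transcripts lack, and runs from the 3′ end. The difference between 3′ and 5′ probe sets, averaged over 5 control transcripts, was -0.06, -0.39 and -0.23 in WW and 0.19, 0.22 and 0.08 in AW. It was higher in AW in each pair, by 0.25, 0.61 and 0.31 (mean 0.39, SD 0.19; exact sign-flip test, two-sided p = 0.25, the smallest that 3 pairs allow). The 25S ribosomal RNA probe set was at 11.1, 11.5 and 9.46 in WW and 11.3, 9.04 and 9.49 in AW. It was thus lower in AW on occasion 2 alone. The part that these quantities had in the organelle or other differences was not tested.

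**Figure D5:**
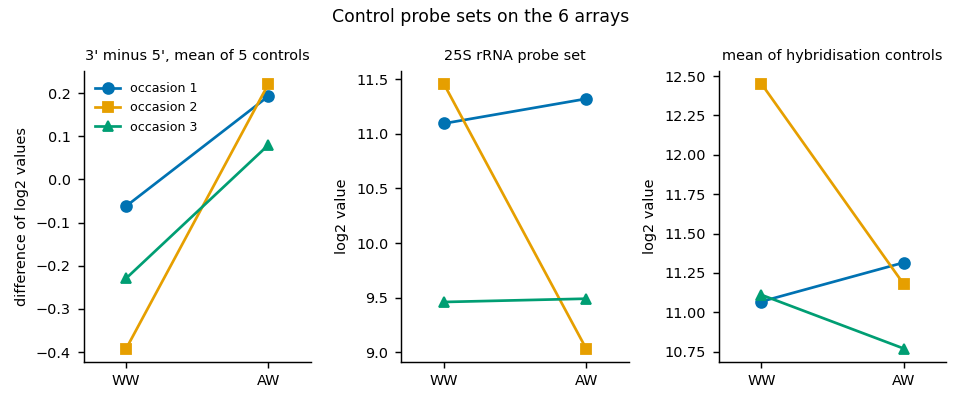
Control probe sets on the 3 WW and 3 AW arrays, joined within each occasion: the mean 3′ minus 5′ difference of 5 control transcripts, the 25S ribosomal RNA probe set and the mean of the hybridisation controls. The 3′ minus 5′ difference is higher in AW on each occasion, and array WW2 is the highest in both of the other panels.

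A few more genes had very large differences on occasions 2 and 3 only. The first is named in the study, which picked it from these same arrays as regulated by Alethea or salt. The others were chosen after their values were seen. The F-box gene, whose product family marks proteins for degradation, was at 2.68, 10.20 and 8.53 in WW and 3.29, 2.66 and 2.37 in AW. Of these 6 arrays only WW2 and WW3 were high, and the salt-watered plants had the same pattern, at 2.75, 9.43 and 8.03 in WS and 2.35, 2.77 and 2.38 in AS. The difference without salt was 0.61 on occasion 1, -7.54 on occasion 2 and -6.16 on occasion 3 (mean -4.36 ± 1.60, Rank Product 0.0055). Alternative oxidase 1b, which lets mitochondrial electrons bypass the proton-pumping chain, was at 1.92, 1.85 and 1.88 in WW and 1.85, 5.89 and 6.00 in AW, so that every array but AW2 and AW3 was under the filter. A probe set matched to an RNA helicase-like protein, and elsewhere to a lipid-transfer protein, had differences of -1.30, 6.02 and 4.33. With a WW mean of 3.05, under the filter, that probe set was kept through AW. The differences of the zinc finger protein ZPT2-13 were -0.18, 2.96 and 4.43. More even were a chitinase/lysozyme, higher by 0.59, 2.33 and 1.58, and a response regulator receiver protein, higher by 1.02, 2.08 and 1.60. All 6 were called by Rank Product, but they were picked from these same arrays, so the calls are not independent evidence.

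Across all 7721 probe sets the differences of occasions 2 and 3 resembled each other (r = 0.46 across probe sets, which are not independent), and those of occasion 1 resembled neither (r = -0.05 with occasion 2 and 0.07 with occasion 3). With the salt-watered pair of the same occasion r was 0.20, 0.81 and 0.59. The salt-watered pair of occasion 1 had r of 0.23 and 0.27 with the unsalted pairs of occasions 2 and 3, and that of occasion 3 had 0.59 with the unsalted pair of occasion 2, so the likeness did not follow the occasion throughout. These pairs are other arrays of the same occasions and share no array with AW or WW. Of the 12 leading genes higher and the 12 lower with Alethea, all had a mean of the same sign under salt. Among all probe sets of one sign in the 3 unsalted pairs, from which they were taken, the share was 87.2 percent of those higher and 89.2 percent of those lower. The sign held in all 3 salt-watered pairs for 10 and 8 of the leading genes, and for 706 of the 1275 and 722 of the 1224.

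The difference between the Alethea effect under salt and without it was called by limma for 0 of 7779 probe sets, with 169 at an unadjusted p under 0.05. Wall enzymes are given here after their values were seen. Cel2, higher in each unsalted pair, had differences of -0.49, -0.45 and 0.00 under salt, a change in the effect of -1.09 ± 0.18, and TBG3 had differences of -0.67, 0.22 and 0.42. The prolyl 4-hydroxylase, lower in each unsalted pair, had differences of -0.49, 0.36 and -0.26 under salt. The adjusted p of all 3 rounds to 1.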

How the data were processed

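RNA was hybridised to an Affymetrix tomato genome array. The deposited values are log2 signals that the authors made from the array images with GCRMA, whose version is not given in the sources used here. Probe-level signals were not used, so background correction, normalisation and probe summary are the authors' own. Probe sets with a mean above 3.2 in AW or WW were kept. AW minus WW was fitted on 6 arrays with limma 3.58.1 in R 4.3.3 (lmFit, eBayes, constant prior, occasion as a block), with 2 residual and 2.97 prior degrees of freedom, and p-values were adjusted by the Benjamini-Hochberg method over all probe sets kept. The number of arrays limits the precision. The interaction with salt used all 12 arrays, with the filter applied over the 4 groups. Rank Product was computed on the 3 pairs from 1000 permutations (Python 3.11.15, numpy 2.4.6), and a probe set was called in a direction where its estimated rate of false discovery was under 0.05. Scripts were tested on simulated data.

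The pairing rests on the 3 separate occasions given in the study's methods. Deviations from the group means correlated at 0.56 to 0.76 between arrays of the same number and at -0.73 to 0.33 between others. Nothing was labelled as a batch.

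Symbols came from the array annotation, which names 909 probe sets (694 of those kept). Of these, 885 matched a current RefSeq symbol. Other names are best matches, often in other species, from the study's additional files, which brought the named probe sets to 905 of those kept. Named genes were the 12 with the largest mean difference in each direction among named probe sets of one sign in all 3 pairs, up to 4 of each of 28 gene lists by absolute t, and genes the study names. List members were written by hand from the array symbols. The members and lists were chosen with earlier results of these data known. Where other list members appear, or genes called by Rank Product, they were picked after their values were seen.

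Alternatives were no replicate block, all 12 arrays, no filter or a filter of 5, median centring, an intensity trend in the prior, Rank Product, and each occasion left out.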

Additional observations from a re-analysis of the deposited data

How the results depend on the processing

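The count of 0 probe sets called by limma held without the filter, with a filter of 5, with arrays centred on their medians, with an intensity trend in the prior, with all 12 arrays and without each occasion in turn, and the smallest adjusted p over these fits was 0.0582, with all 12 arrays. Without the replicate block, which drops the pairing by occasion, 0 were called and 128 had an unadjusted p under 0.05 in place of 624. Rank Product called 35. The fit of all 12 arrays without occasion 1, added after the data had been seen, called 50 at an adjusted p under 0.05, of which 40 were higher and 10 lower with Alethea, and the regulator of gene silencing, alternative oxidase 1b and the F-box gene were among them. The same fit without occasion 2 or without occasion 3 called 0. The interaction with salt stayed at 0 in all 6 alternatives run. Among the 92 probe sets of genes named, 4 changed sign when an occasion was left out, in the fits of 6 and of 12 arrays. PDH (-0.31) was between -0.71 and 0.093, ADC (0.073) between -0.034 and 0.15, TD2 (0.37) between -0.062 and 0.87, and the cathepsin D inhibitor (0.53) between -0.016 and 1.11. The negative values came without occasion 3 for ADC and the inhibitor and without occasion 2 for TD2, and the positive value of PDH came without occasion 3. Without one occasion, the control transcripts had 3′ minus 5′ differences 0.28 to 0.46 higher in AW. Leaving out occasion 1 raised, and leaving out occasion 3 lowered, the mean differences of the regulator of gene silencing (4.82 and 2.41) and tXET-B2 (3.96 and 1.78), whereas RNALE stayed between 1.96 and 2.06. With 3 pairs no exact test can give a p under 0.25, and the counts above rest on limma's pooled spread.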
